A study of Mus musculus with 4 samples.

Results

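The cells described here are lung macrophages on the Fcna and Folr2 side of the interstitial compartment, 236 of the 2079 C1q-positive macrophages and of the 22258 cells kept in the series. Cells were barcodes holding 1000 or more UMIs (counted molecules) and 500 or more genes, of which at most 10% of UMIs were mitochondrial. A C1q-positive macrophage had at least 5 UMIs of C1qa, C1qb and C1qc together and more of these than of the alveolar macrophage genes Chil3, Ear1, Ear2, Fabp1, Lpl and Plet1. Members were chosen by 4 or more UMIs of Fcna, Folr2, Lyve1, Cd163, F13a1 and Ccl8 together. The levels of these 6 genes, and every difference between members and the other 1843 C1q-positive macrophages of the same libraries, therefore describe the selection and were not tested.

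Lung macrophages of female mice were sorted from collagenase-digested lungs and profiled by droplet 3′ single-cell RNA sequencing, with 1 library in each of 4 groups. Wildtype early and wildtype late came from FVB mice of 16 and 32 weeks, and HER2 early and HER2 late from MMTV-HER2 mice of the same ages, in which the mouse mammary tumour virus promoter drives a HER2 transgene. The protocol describes late-stage females as bearing palpable tumours without naming a genotype, and littermates were assigned to the groups at random. The genotype was taken from the sample titles, because the strain entry names both genotypes for every sample. The number of mice behind a library and the antibodies of the sort are not given in the sources used here. Where 4 values follow each other they are the wildtype and HER2 libraries of 16 weeks and then the wildtype and HER2 libraries of 32 weeks. With 1 library per group no difference has a replicate check, no p-value was computed, and all 95% intervals cover counting error only.

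Macrophages of the lung interstitium fall between populations rich in MHC class II, which present antigen, and populations near vessels and nerves that carry LYVE1, a hyaluronan receptor, and FOLR2, a folate receptor. The second kind is known for scavenging, with the haemoglobin receptor CD163, the mannose receptor MRC1 and the pattern-recognition lectin ficolin A (Fcna). It also makes the chemokine CCL8 and the transglutaminase subunit factor XIII A (F13a1). RELM-alpha (Retnla), a secreted protein, is a usual sign of alternative activation by interleukin-4 and interleukin-13.

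The promoters of 3 rule genes and of Retnla are shown because the levels of these 4 genes are followed through the results. In GRCm38 (GENCODE release M21) the 4 genes are protein coding and lie at chr2:25624666-25628030, chr7:101839988-101857194, chr11:82115185-82116799 and chr16:48842551-48844461, with Fcna and Folr2 on the minus strand. The 250 bases before the start annotated in RefSeq are printed 5′ to 3′ from the table of build GRCm38.p6. For Fcna, Folr2 and Retnla that start lies inside the GENCODE gene, so their windows overlap the positions given above. Folr2 has more than 1 start in that table and the first entry is shown. Capitals mark GAGGAA, the core bound by PU.1, and TGCTGA, the core bound by MAF factors, on either strand.
Fcna promoter (chr2:25627975-25628224, minus strand): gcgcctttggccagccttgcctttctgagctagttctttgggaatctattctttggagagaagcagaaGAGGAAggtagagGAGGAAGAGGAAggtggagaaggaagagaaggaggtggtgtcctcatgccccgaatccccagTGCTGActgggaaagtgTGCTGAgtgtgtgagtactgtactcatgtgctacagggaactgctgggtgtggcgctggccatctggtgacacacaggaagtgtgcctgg
Folr2 promoter (chr7:101857191-101857440, minus strand): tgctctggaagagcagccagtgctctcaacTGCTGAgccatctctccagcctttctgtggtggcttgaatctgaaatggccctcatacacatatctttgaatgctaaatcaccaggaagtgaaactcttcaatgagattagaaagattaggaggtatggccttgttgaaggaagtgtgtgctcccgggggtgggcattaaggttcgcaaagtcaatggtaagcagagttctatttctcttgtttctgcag
Ccl8 promoter (chr11:82114935-82115184, plus strand): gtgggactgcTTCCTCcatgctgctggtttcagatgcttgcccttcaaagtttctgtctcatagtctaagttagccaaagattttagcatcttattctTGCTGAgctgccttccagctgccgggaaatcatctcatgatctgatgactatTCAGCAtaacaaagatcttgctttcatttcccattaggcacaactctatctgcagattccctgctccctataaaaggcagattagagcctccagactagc
Retnla promoter (chr16:48842359-48842608, plus strand): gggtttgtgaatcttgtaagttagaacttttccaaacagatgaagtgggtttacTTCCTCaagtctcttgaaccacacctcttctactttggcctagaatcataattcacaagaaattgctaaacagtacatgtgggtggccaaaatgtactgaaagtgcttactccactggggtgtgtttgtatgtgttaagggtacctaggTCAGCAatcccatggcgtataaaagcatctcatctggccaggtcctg

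GAGGAA was present in 23.3% of all 32851 promoter windows of 250 bases and TGCTGA in 16.1%. Of the 146 genes higher in members (below), 113 were in the table, with 150 windows, of which 26.7% held GAGGAA and 16% held TGCTGA. A STAT6 motif was in 5.85% of all windows, in 2.67% of those 150 and in that of Retnla. A KLF motif, CACCC, was in 52.0% and 59.3%. These are matches of letters and not measured binding.

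**Figure D1:**
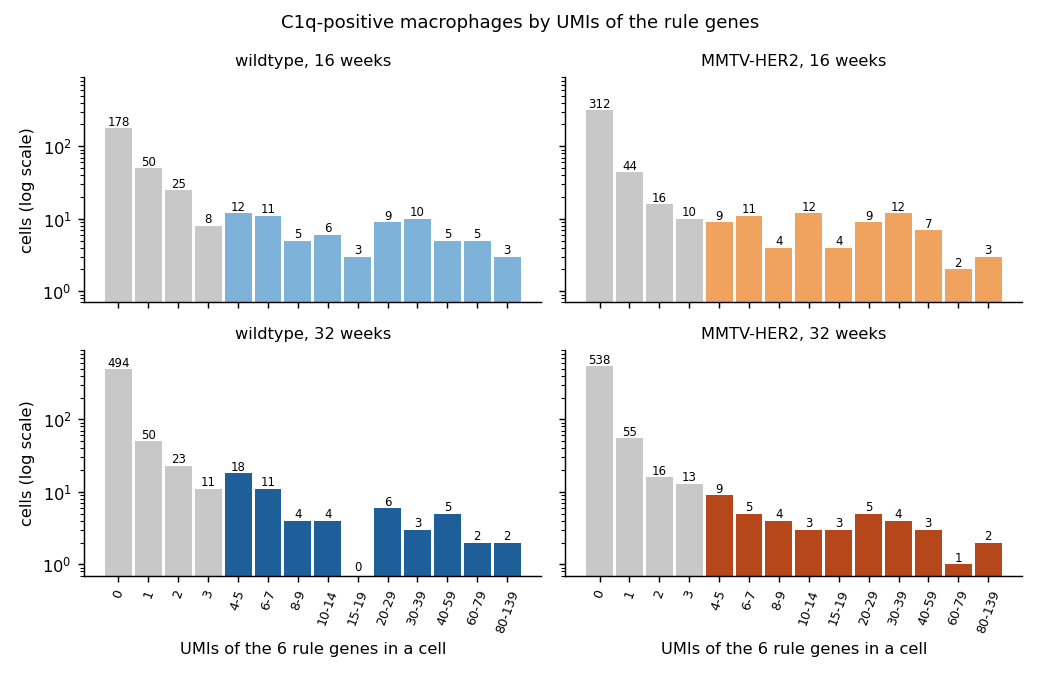
C1q-positive macrophages of each library by the number of UMIs of the 6 rule genes in a cell (x axis) and the number of cells (y axis, log scale, printed on each bar). Coloured bars are members, and bars from 4 UMIs up cover wider and wider ranges. Between 178 and 538 cells of a library had 0 rule gene UMIs, and 32, 33, 18 and 15 members had 20 or more.

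Members numbered 69, 73, 55 and 39. Their rule gene UMIs were spread over a wide range, with medians of 15, 15, 7 and 12 and maxima of 133, 109, 87 and 95 per cell. The number of cells fell through the threshold without a gap: 42 cells held exactly 3 such UMIs and were left out, 23 held exactly 4 and were kept, and 1522 held none. The plot of cells by rule gene UMIs shows 98 members at 20 or more UMIs, beside 138 at 4 to 19. Between 3 and 7 members of a library lay at 15 to 24, near the value that divides these members. A single rule gene gave the UMIs of 9, 8, 6 and 7 members, and all 6 were present in 12, 9, 4 and 7.

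The 6 rule genes had these levels in summed UMIs of the members, scaled to counts per 1e6 (CPM). Fcna stood at 420.4, 483, 762 and 392 CPM and had a UMI in 41, 39, 21 and 21 members. Folr2 stood at 434, 609.6, 554 and 372 CPM and had a UMI in 55, 55, 38 and 26 members, against 53, 61, 43 and 31 for F13a1. The end of Folr2 is 100% alike to Gm10602 over 300 bases, so reads between them are uncertain. Lyve1 was at 455, 616, 516 and 412 CPM, against 0.544, 0.543, 0.989 and 1.12 in the other C1q-positive macrophages. The other C1q-positive macrophages were set apart by their few rule gene UMIs, so their low Lyve1 level describes the selection. Cd163 alone was lowest in wildtype early and highest in HER2 late, at 258, 313, 491 and 569.9 CPM. F13a1 was at 830.0, 1108, 987 and 745 CPM and was the leading rule gene of 28, 28, 16 and 13 members. Ccl8 was highest in wildtype late, at 349, 549, 1033 and 299.8 CPM, and was uneven between cells, the richest 3 cells of each library holding 44.6, 50.2, 51.6 and 60.4% of its UMIs. In alveolar macrophages the share of cells with a UMI was 0.210 to 0.349% for Fcna, 0.287 to 0.360% for Folr2 and 0.267 to 0.491% for Lyve1, at median depths of 4309.5, 3730.5, 4759 and 4370 UMIs per cell against 8182, 5952, 3918 and 6798 in members. At 2000 UMIs per cell Fcna was found in 41.2, 41.7, 29.8 and 41.0% of members, against 1.18, 0.554, 0.619 and 0.508% of the other C1q-positive macrophages (unthinned 59.4, 53.4, 38.2 and 53.8% against 3.45, 2.09, 1.73 and 2.89%). Fcna is a rule gene, so this gap describes the selection too and is no check of it.

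Markers of cell types were set beside the label of interstitial macrophages. Members had medians of 75, 57, 38 and 65 C1q UMIs and of 1, 1, 1 and 2 UMIs of the 6 alveolar genes per cell. The 10 interstitial markers summed to 30218, 31847, 31746 and 27189 CPM, against 26842, 26527, 23851 and 24988 in the other C1q-positive macrophages. The C1q and alveolar genes are part of the rule, and C1qa, C1qb and C1qc are among the 10 markers. The medians and part of the sums therefore describe the selection and are no check of the label. Ly6c2 and Vcan, of the 8 classical monocyte genes, were at 0 in the members of all 4 libraries, and the neutrophil genes S100a9, Cxcr2 and Ly6g likewise. The classical monocyte list as a whole summed to 132, 242, 117 and 217 CPM in members against 217, 291, 371 and 330 in the others. The non-classical monocyte list summed to 216, 286, 267 and 356 CPM against 205, 266, 432 and 276. The neutrophil list still summed to 420.4, 448, 508 and 392 CPM in members against 47.9 to 232 in the others, nearly all of it Mmp9, a gelatinase, at 396, 418, 483 and 376 CPM. The list for large macrophages of the pleural cavity summed to 486, 1249, 783 and 715 CPM against 26.2 to 60.4. Its defining factor Gata6 was at 0 except for 1 wildtype late member, and Prg4, which encodes lubricin, was in 5, 5, 4 and 4 members, at 59.2, 372, 433 and 145 CPM. The members with Prg4 are described after these lists. The dendritic cell list was at 519, 341, 312 and 409 CPM against 402, 245, 123 and 182. The B cell list was at 262, 256, 662 and 237 CPM against 207, 233, 1120 and 286. It reached 2 or more UMIs in 47.8, 46.6, 54.5 and 48.7% of members and 37.5, 28.3, 27.7 and 43.6% of the others. The part of these lists in the results was not tested, except that cells with Prg4 and cells of other types were left out in turn. Cells of other types had 2 or more UMIs of a T cell, B cell, NK cell, neutrophil, endothelial, fibroblast, epithelial, mast cell, platelet or erythroid list. The monocyte, dendritic cell and pleural cavity lists were not part of that filter. No member shared its barcode with a member of another library.

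The members with Prg4 differed from the rest in several genes. They were 5, 5, 4 and 4 cells, or 18 in all, and held 90, 68, 61 and 64 of the 270, 230, 183 and 119 Fcna UMIs of the members. Every member UMI of the coagulation factor gene F5, of Selp (P-selectin), of the lipoxygenase gene Alox15 and of Saa3 (serum amyloid A) lay in these cells. They held 172, 269, 63 and 56 of the 176, 330, 63 and 56 Fn1 UMIs, and Timd4 was found in 4, 5, 2 and 4 of them. Ccl8, Vcam1 and Pla2g2d were at 0 in them in all 4 libraries, and H2-Aa was at 0, 98.4, 0 and 2527 CPM and Mrc1 at 110.4, 236, 408 and 534. These cells thus carried genes of the pleural cavity list with less Mrc1 and, in the first 3 libraries, little or no H2-Aa. Without them, an alternative chosen after these genes had been seen, Fcna was at 306, 381, 547 and 199.7 CPM in the members that remained.

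T cell transcripts set wildtype early apart, and this bears on every comparison with that library. Together 8 T cell genes (Cd3e, Cd3d, Cd3g, Trac, Trbc2, Cd8a, Cd8b1 and Lck) reached 2 or more UMIs in 36, 9, 5 and 0 members, or 52.2, 12.3, 9.09 and 0%. Their summed level was 1992, 387, 254 and 0 CPM in members, 1934, 159.6, 147 and 60.1 in the other C1q-positive macrophages, 55.8, 2.27, 2.89 and 6.44 in alveolar macrophages and 492, 57.6, 32.6 and 28.6 in barcodes of 10 to 100 UMIs, which hold free RNA. In wildtype early the affected cells were 17 of the 32 members with 20 or more rule gene UMIs and 19 of the other 37. Their part in the results was not tested beyond leaving such cells out, and the main results that involve wildtype early are given with and without them. The splits of members by rule gene UMIs and by Retnla use all members. That alternative was chosen after the T cell genes had been seen, and leaves 33, 64, 50 and 39 members.

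**Figure D2:**
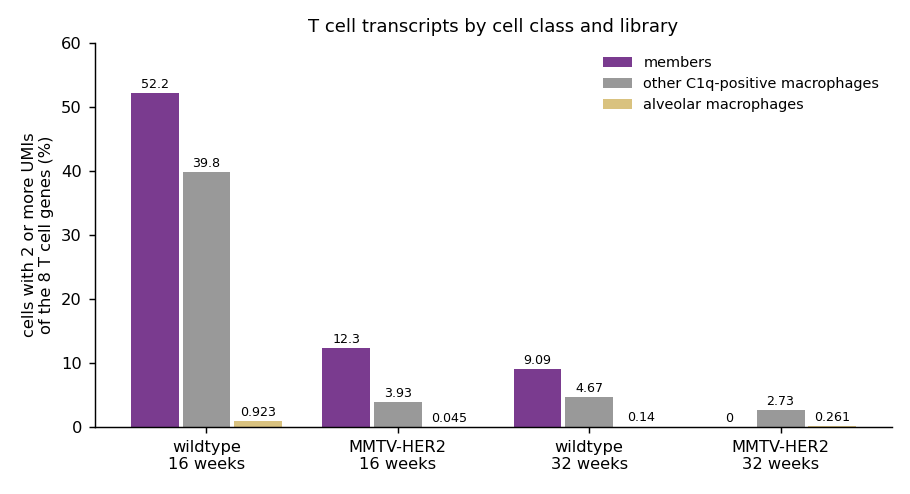
Share of cells (y axis, %) with 2 or more UMIs of 8 T cell genes in each library, for members, other C1q-positive macrophages and alveolar macrophages; bars start at 0 and carry their values. Wildtype early stands at 52.2% of members and 39.8% of the others, the other libraries at no more than 12.3 and 4.67%.

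Members made up 20.9, 16, 8.69 and 5.9% of the C1q-positive macrophages, with exact Clopper-Pearson intervals of 16.6 to 25.7, 12.8 to 19.7, 6.61 to 11.2 and 4.23 to 7.98. The 2 early libraries were above the 2 late ones, with intervals that do not overlap, and within each stage the wildtype and HER2 intervals overlapped. The number of C1q-positive macrophages rose between the stages while the number of members fell, so the share of members in all cells was flatter, at 1.27, 1.42, 1.07 and 0.595%. HER2 late was lowest on both scales. With all cells thinned to 2000 UMIs the shares were 12.1, 10.9, 5.83 and 3.02%, which left out 7, 22, 101 and 31 shallower cells, with intervals of 8.73 to 16.1, 8.09 to 14.2, 3.99 to 8.17 and 1.83 to 4.67. The order of the libraries was the same, but the intervals of HER2 early and wildtype late then overlapped. With T cell RNA cells left out the shares were 17.4, 14.8, 8.32 and 6.06%. The sort gate is not known, so shares of sorted cells need not be shares of the lung.

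Against the other C1q-positive macrophages, members carried a set of resident macrophage genes outside the rule. A gene was called where the ratio of CPM + 10 was at least 1.5-fold the same way in all 4 libraries, and 146 genes were higher (4.47% of 3267 tested) and 61 lower (1.87%), with a median log2 ratio of 0.09 over all genes tested. Of 32 listed resident tissue macrophage genes, all measured, 25 were higher and 1 was lower, with a median log2 ratio of 2.02. These counts describe the cells that the rule selected. With T cell RNA cells left out 144 genes were higher and 56 lower, of which 127 and 47 were among those above, and 24 of the 32 resident genes were higher and 1 lower.

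Lectin genes of the Cd209 cluster on chromosome 8, relatives of the human receptor DC-SIGN, were prominent, and Cd209f led the higher genes ranked by the smallest of their 4 ratios. Cd209f stood at 528, 523, 483 and 316 CPM in members and 0.544, 1.09, 0.989 and 1.4 in the others, in 27, 31, 18 and 13 members. Cd209g stood at 219.6, 223, 129 and 168 CPM in members, and in the others it had a single UMI in wildtype early and 0 in the other 3 libraries. Cd209f and Cd209g are 95.7% alike over 93 bases of their ends, so reads between them are uncertain. Cd209b stood at 282, 265, 149.9 and 115 CPM and Cd209d at 151, 162, 154 and 42.8 CPM, both lowest in HER2 late with all members. In wildtype early 96 of the 181 Cd209b UMIs lay in 1 cell. Without T cell RNA Cd209b was at 55.1, 275, 170 and 115 CPM, lowest in wildtype early. In that setting Cd209d was at 120, 176, 175 and 42.8 CPM and Cd209f at 272, 499, 543 and 316. Hal, which encodes histidine ammonia-lyase, was at 361, 467, 358 and 296 CPM against 10.3, 4.34, 1.98 and 5.9 in the others.

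Retnla was uneven between cells. Its level in members was 2253, 5162, 5784 and 2049 CPM, against 126, 229.6, 9.89 and 93.5 in the other C1q-positive macrophages and 16.1, 41.1, 8.04 and 17.2 in alveolar macrophages. It was found in 27, 33, 12 and 12 members only, and the richest 3 cells held 42.8, 34.2, 67.5 and 56.8% of its UMIs in each library. HER2 early and wildtype late were the high libraries, and in wildtype late the level rested on 12 cells. Of the alternative activation list 4 of 6 measured genes were higher, namely Retnla, Mrc1, Clec10a and the chemokine Ccl24, which attracts eosinophils. Mgl2, a galactose lectin on the same list, was lower.

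Other higher genes had roles in lipid mediators, clearance and hormone signalling. Cbr2, a carbonyl reductase, was at 308, 437, 558 and 448 CPM against 15.2, 21.7, 23.2 and 12.6. Ltc4s, which makes leukotriene C4, was at 305, 458, 333 and 244 CPM against 35.4, 45.6, 11.9 and 34.8 in the other C1q-positive macrophages, and it was also at a high level in alveolar macrophages, at 453, 455, 267 and 410.3. Ednrb, the endothelin B receptor, was at 143, 315, 208 and 105 CPM and at most 1.4 in the others. Igf1, insulin-like growth factor 1, was even across the libraries, at 176, 162, 149.9 and 171 CPM. Of 18 measured scavenger and uptake receptors 11 were higher, among them Mrc1, Stab1, Cd36, Timd4 and Colec12, and 1, Axl, was lower, and without T cell RNA 10 were higher and none lower. Of 15 complement and Fc receptor genes 5 were higher, among them C3, C4b and Cd55, and none lower, against 6 and 0 without T cell RNA. C4b stood at 142, 412, 299.8 and 204 CPM against 11.4, 5.97, 4.94 and 3.93, but its end is 98.3% alike to that of C4a. Vsig4, the complement receptor of resident macrophages, was found in 7, 11, 7 and 6 members, and Fn1, which encodes fibronectin, had 93.8, 79.7, 100 and 100% of its UMIs in the richest 3 cells. Fn1 was at 274, 694, 262 and 184 CPM in members, with a median log2 ratio of 3.51 over the others, and at 6.8, 144, 0 and 0 CPM and -1.02 without the cells that held Prg4, so its direction rested on those cells. Cd55 kept its direction, with 2.64 and 2.79.

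Iron and stress genes were among the higher groups. Slc40a1 (the iron exporter ferroportin), Hmox1 (haem oxygenase), Cp and Blvrb were higher out of 10 measured iron and haem genes, and none was lower. Without T cell RNA 4 of 11 were higher and none lower. Hmox1 was at 169.7, 252, 91.6 and 280.0 CPM in members and 43.5, 68.4, 38.1 and 60.1 in the others. Of 22 immediate early and dissociation stress genes 12 were higher and none lower, with a median log2 ratio of 0.84, among them Junb, Egr1, Klf2 and Klf4. Without the cells that held T cell RNA 7 of 22 were higher. Members were deeper than the others in each library (8182, 5952, 3918 and 6798 UMIs per cell against 6081, 4374.5, 3122 and 5159) and had somewhat larger mitochondrial shares (5.98, 5.75, 4.69 and 5.99% against 5.6, 4.79, 4.38 and 5.04%). The part of depth or handling in this list was not tested.

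Antigen presentation went the other way. Of 11 measured genes of MHC class II and presentation 8 were lower and none higher, with a median log2 ratio of -1.01. H2-Aa stood at 4276, 4156, 2711 and 5996 CPM in members and 7529, 10729.7, 5894 and 9558 in the others, and the invariant chain Cd74 at 9393, 8942, 8924 and 15938 against 20502, 28375, 27654 and 31325. Members kept these transcripts at high levels, and the gap was smallest in HER2 late, where Cd74 had a log2 ratio of -0.97 against -1.66 in HER2 early. Without the cells that held T cell RNA 6 of 11 were lower.

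Genes usual for the C1q and MHC-II population were lower as well. Of 18 measured, 9 were lower and none higher (6 and none without T cell RNA), among them Itgax (CD11c), Ccr2, Mmp12 and Tmem119. H2-M2, a non-classical class I gene, led the lower genes ranked by the smallest of their 4 ratios, at 6.23, 0, 0 and 9.88 CPM against 82.7, 82, 93.4 and 109. Pmepa1, a target and inhibitor of TGF-beta signalling, was at 96.5, 94.6, 121 and 138 CPM against 358, 489.7, 502 and 492, and the receptor Tgfbr1 at 88.8, 61, 83.3 and 75.8 against 269, 286, 414 and 307. Mmp13, a collagenase, was at 0, 6.31, 0 and 13.2 against 31.6, 44, 144 and 142. Il1b, the inflammatory cytokine, stood at 18.7, 31.5, 37.5 and 52.7 CPM against 117, 127, 163 and 189, and Klrb1b, Dcstamp, Plxdc2 and Scimp were also lower in all 4 libraries.

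**Figure D3:**
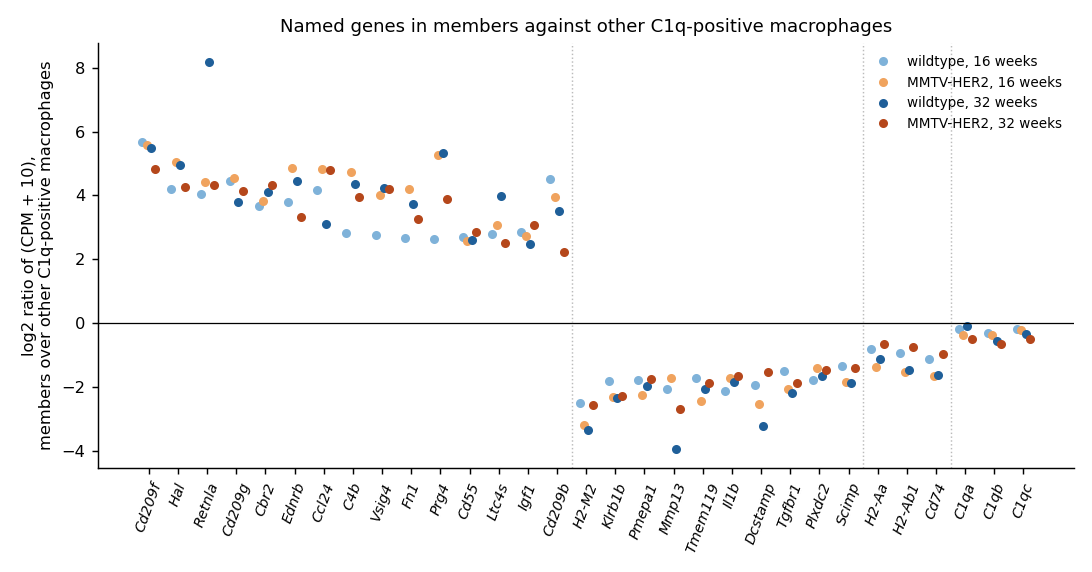
Log2 ratio of CPM + 10 between members and other C1q-positive macrophages (y axis) for the 15 highest and 10 lowest named genes, 3 MHC class II genes and the 3 C1q genes (x axis), with 1 point for each library. The 15 higher genes lie above 2 in every library, and the C1q genes, which selected both classes, lie below 0 by less than 1.

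Within the members, cells with 20 or more rule gene UMIs differed from those with 4 to 19 in genes that the rule did not count. H2-Aa was at 2105, 2352, 2221 and 3816 CPM in the first and 6750.3, 5962, 3080.3 and 7412 in the second, lower in all 4 libraries. Cd209g was at 269, 344, 301 and 393 CPM against 163, 101, 0 and 21.7, and Ednrb at 263, 512, 359 and 226 against 6.66, 118, 94.9 and 27.2. Mrc1 was less divided, at 1128, 1588, 2376 and 1356 CPM against 829.6, 1089.8, 1672 and 619. The first group was the deeper, with median totals of 10009, 6127, 5279.5 and 7308 UMIs per cell against 7076, 5225.5, 3474 and 5861, and both groups share their libraries.

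Members were also split by Retnla, and this split overlapped that by rule gene UMIs. Retnla was detected in 21, 23, 8 and 7 of the 32, 33, 18 and 15 members with 20 or more rule gene UMIs. With 4 to 19 it was detected in 6, 10, 4 and 5 of 37, 40, 37 and 24. H2-Aa was lower with Retnla, as in the first split, at 2496, 2877, 1317 and 5252 CPM against 5515, 5447, 3114.5 and 6300. The part of rule gene UMIs in the differences between cells with and without Retnla was not tested. Cells with Retnla had 216, 41.8, 55.7 and 102 CPM of Cx3cr1, the fractalkine receptor, against 573, 579, 634 and 501 in members without it. Ednrb was higher in the Retnla cells of every library, at 334, 589.7, 649 and 363 CPM against 10.6, 38, 80.5 and 0. Lyve1, itself a rule gene, was at 808, 912, 1762 and 1055 CPM against 209, 317, 156 and 149 and followed Retnla in each library. Ccl8, also a rule gene, did not, at 451, 339, 575 and 533 CPM against 277, 761, 1165 and 204: it was higher with Retnla in wildtype early and HER2 late and lower with it in the other 2 libraries. These levels rest on few cells. In wildtype late 24 of the 31 Ccl8 UMIs with Retnla lay in 1 cell, and in HER2 early 77 of the 180 without it. A Ccl8 UMI was found in 11, 13, 4 and 6 of the 27, 33, 12 and 12 cells with Retnla. Without Retnla it was found in 20, 15, 25 and 11 of 42, 40, 43 and 27. Cells with Retnla are those where it was seen, and members with 0 UMIs may hold it below detection.

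**Figure D4:**
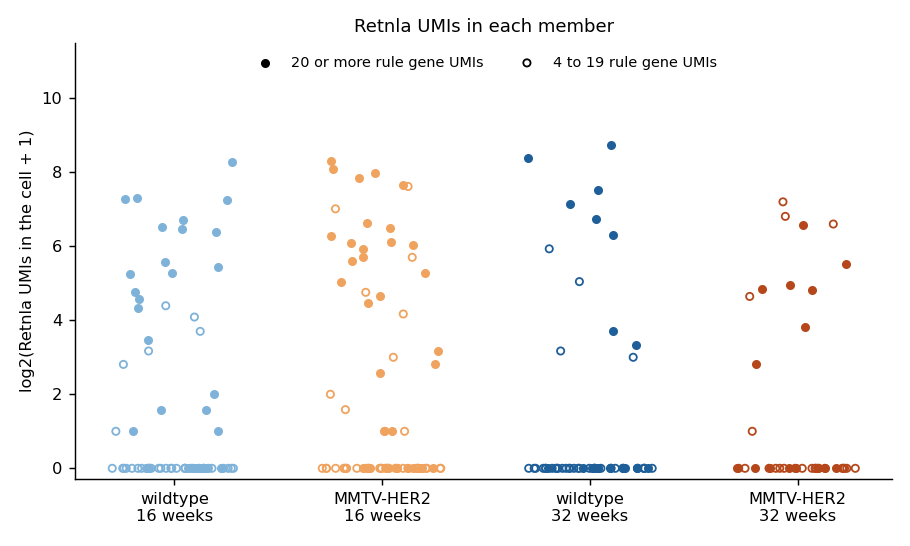
Retnla UMIs in every member (y axis, log2 of the count + 1) by library (x axis, points spread sideways at random); filled points are members with 20 or more rule gene UMIs and open points those with 4 to 19. Members with a Retnla UMI number 27, 33, 12 and 12, and the rest lie at 0.

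At 16 weeks, HER2 members were compared with wildtype members over 1454 genes that averaged 100 CPM or more. Past 1.5-fold, 57 genes were higher in HER2 early (3.92%) and 107 lower (7.36%), with a median log2 ratio of 0.00 over all tested. The named lower genes were led by factors of T cells. Satb1 stood at 601 CPM in wildtype early and 25.2 in HER2 early. Lef1 (190.0 and 10.5), Tcf7 (329 and 54.7), Bcl11b (221 and 44.1) and Ets1 (251 and 52.5) had the same order. Without the cells that held T cell RNA these 5 genes were at 6.88, 0, 3.44, 3.44 and 0 CPM in wildtype early, and Ets1 changed direction. The 33 wildtype early and 64 HER2 early members that remained gave 111 higher (7.95% of 1397) and 97 lower genes (6.94%), and of the 164 genes called with all members 65 were called again.

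Among the named higher genes were Retnla, the complement gene C4b and genes of lipid handling. Retnla was at 2253 CPM in wildtype early and 5162 in HER2 early, a log2 ratio of 1.19 (1.10 to 1.29) with the counting interval of the plain ratio in parentheses, and of 1.31 without T cell RNA. In the other C1q-positive macrophages the log2 ratio was 0.81. C4b had 1.48 (1.17 to 1.91) with all members and 1.04 without T cell RNA, and -0.42 in the others. The lipid droplet coat gene Plin2 rose from 204 to 511 CPM, with 1.28 (1.01 to 1.64) and 1.19. The tetraspanin Cd9 had 1.31 (0.93 to 1.89) and 0.76, and Cd36, which takes up fatty acids, 0.96 (0.70 to 1.27) and 0.95. Ednrb had 1.09 (0.75 to 1.53) and 1.31, and Ier3, an immediate early gene, 1.33 (0.90 to 2.06) and 1.82. Ccdc152 overlaps Selenop and shares its end, so its reads are uncertain. Of 13 measured lipid genes 5 were higher and none lower with all members, and 4 were higher and 3 lower without T cell RNA. Of 20 immediate early and stress genes 6 were higher and 1 lower, and 11 and 1 without T cell RNA.

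Resident macrophage genes leaned upwards in HER2 early. With all members 5 of 30 measured were higher and none lower, with a median log2 ratio of 0.28, and the other C1q-positive macrophages had 0.29 for the same list. Without T cell RNA 12 of 30 were higher and 1, Timd4, lower. Mrc1, at 805 and 1349 CPM, and Gas6, a ligand of the TAM receptors, at 209.9 and 401, were among the 12. Of the antigen presentation list none of 8 was called with all members, while 3 of 9 were lower without T cell RNA. Acp5, the acid phosphatase TRAP, fell in both settings (log2 ratios of -2.04 and -2.90). Smc4, a condensin subunit, had -1.50 with all members and -0.44 without T cell RNA.

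At 32 weeks 1387 genes were compared, and 123 were higher (8.87%) and 164 lower (11.8%) in HER2 late, with a median log2 ratio of -0.03. T cell RNA was at 254 CPM in wildtype late and 0 in HER2 late, and each log2 ratio named in this and the next paragraph kept its direction without the affected cells. The B cell list was at 662 CPM in wildtype late members and 237 in HER2 late, and cells with B cell RNA alone were not left out. The 2 libraries rest on 55 and 39 members of unequal depth. Resident macrophage genes were lower: of 29 measured 9 fell and none rose, with a median of -0.35 against -0.17 in the other C1q-positive macrophages. Mrc1 went from 1974 CPM in wildtype late to 909 in HER2 late, a log2 ratio of -1.11 (-1.34 to -0.90). Selenop, a selenium carrier, went from 4481 to 2388 CPM, with -0.90 (-1.05 to -0.77), against -0.27 in the others. Retnla fell from 5784 to 2049 CPM, with -1.49 (-1.64 to -1.36), and had 2.38 in the others, where it was at 9.89 and 93.5 CPM. The 4 wildtype late members with Prg4 held 517 of the 1389 Retnla UMIs of that library, and the 4 in HER2 late 19 of 622. With the Prg4 cells left out the log2 ratio was -0.83, the same direction with a smaller gap. Retnla was found in 12 of the 55 wildtype late members and in 12 of the 39 in HER2 late. It had too large a share of its wildtype late UMIs in 3 cells to be ranked. Cltc (clathrin), Ly6e, Clec2d, Fxyd2, Sulf2 and Arid4a were the other named lower genes, with log2 ratios of -1.04, -0.97, -1.08, -1.24, -1.12 and -1.42. The ends of Sulf2 overlap Ncoa3.

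Ferritin and MHC class II genes were higher in HER2 late members. The ferritin heavy chain Fth1 went from 3981 to 9889.9 CPM, with 1.31 (1.21 to 1.42), against 0.36 in the other C1q-positive macrophages. The light chain Ftl1, which has near-identical pseudogenes, had 1.01 (0.91 to 1.12), and Hmox1 went from 91.6 to 280.0 CPM, with 1.51 (0.92 to 2.36). Of 7 measured iron and haem genes 3 were higher and 1, Cp, lower. H2-Aa went from 2711 to 5996 CPM, with 1.14 (1.02 to 1.28), and H2-Ab1 and Cd74 were the other 2 of 9 measured presentation genes that rose, with none lower. The list's median was 0.46, against 0.18 in the other C1q-positive macrophages. Among members with 20 or more rule gene UMIs the list had a median of 0.00, with 2 of 8 higher. S100a6, a calcium-binding protein, went from 275 to 771 CPM, while the others had a log2 ratio of -0.23. The protease inhibitor Cst3, the histone H3f3a and the glycolytic enzyme Gapdh, which has near-identical pseudogenes, had log2 ratios of 0.88, 1.26 and 1.47. For Gapdh the others had 1.30.

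**Figure D5:**
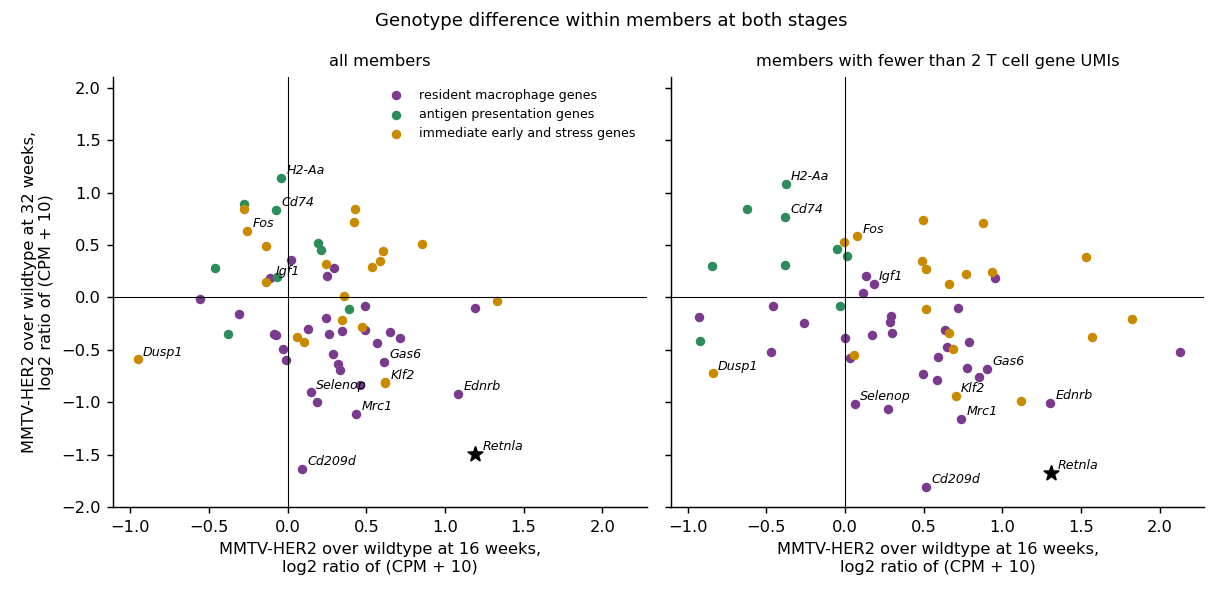
Log2 ratio of CPM + 10 between HER2 and wildtype members at 16 weeks (x axis) and at 32 weeks (y axis) for 3 gene lists and Retnla, with all members (left) and with members of fewer than 2 T cell gene UMIs (right). Retnla lies at 1.19 and -1.49 in the left panel and at 1.31 and -1.67 in the right, and Mrc1, Ednrb and Gas6 keep their signs on both axes between the panels.

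Genes set apart by genotype at both stages had both HER2 libraries above, or both below, both wildtype libraries by a ratio of at least 5 to 4. Of 1423 genes tested 22 were higher (1.55%) and 54 lower (3.79%). Plin2 was at 204, 511, 329 and 478 CPM and Cd9 at 88.8, 235, 162 and 270.1, so both HER2 libraries exceeded both wildtype ones. Hmox1 was at 169.7, 252, 91.6 and 280.0 CPM, the nuclear lamina gene Lmna at 192, 292, 204 and 409, the leukotriene synthesis helper Alox5ap at 293, 441, 292 and 494 and the polymerase subunit Polr1d at 118, 187, 112 and 191. Among the lower genes, Dusp1, a phosphatase induced by stress and glucocorticoids, was at 799, 408, 804 and 530.4 CPM. The splicing factors Pnn and Tra2b were at 196, 86.2, 142 and 82.4 CPM and 198, 126, 192 and 105 CPM, and Slc38a2, an amino acid transporter, at 209, 119.8, 237 and 135. The chromatin gene Arid1a was at 171, 98.8, 154 and 95.5 CPM and Elf1 at 149, 96.7, 158 and 92.2. Without the cells that held T cell RNA 66 genes were set apart, of which 26 were among these 76, including 5 of the 6 named higher genes (all but Alox5ap) and none of the 6 named lower ones. Among members with 20 or more rule gene UMIs Cd9 and Lmna were no longer apart.

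Late and early libraries were compared within each genotype, and whether the genotypes differ in this was not tested. In wildtype, 162 of 1528 genes were higher at 32 weeks (10.6%) and 185 lower (12.1%), and 11 of 30 resident genes rose while 3 fell. The anaphylatoxin receptor C3ar1 went from 126 to 412 CPM, with a log2 ratio of 1.63 (1.27 to 2.15). Gpr34 had 1.40 (0.96 to 2.01), and Mrc1 0.99 (0.82 to 1.17). The focal adhesion gene Tns1 went from 118 to 296 CPM. Satb1, Tcf7, Bcl11b and Tmsb10 were lowest, with -4.52, -2.97, -2.91 and -2.01. Without T cell RNA these were 0.52, -0.43, -0.43 and -0.54, while C3ar1, Gpr34, Tns1 and Mrc1 had 1.51, 1.24, 1.38 and 1.33. In that setting 201 of 1421 genes were higher (14.1%) and 173 lower (12.2%), and 13 of 30 resident genes rose while 1 fell. The end of Tmsb10 is 99.3% alike to Gm9844 over 300 bases, so its reads are uncertain.

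In HER2 members 58 of 1361 genes were higher at 32 weeks (4.26%) and 71 lower (5.22%), and 1 of 31 resident genes, Slc40a1, rose while 8 fell, with a median of -0.20. Among members with 20 or more rule gene UMIs 4 of 32 rose and 4 fell, with a median of 0.12. Retnla went from 5162 to 2049 CPM, with -1.33 (-1.46 to -1.21), and had -1.21 in the other C1q-positive macrophages. Cd209d and Fxyd2, a sodium pump regulator, had -1.70 (-2.89 to -1.06) and -1.68 (-2.49 to -1.16), against 0.06 and 0.00 in the others. The higher genes were led by the chemokine Cxcl16, at 128 and 329 CPM, the inhibitory lectin Clec12a, at 84.1 and 221, H2-Ab1, at 2959.6 and 5508, and Cd74, at 8942 and 15938. Cd74 and H2-Ab1 had log2 ratios of 0.14 and 0.10 in the others. Comparisons that share a library, such as HER2 over wildtype at 32 weeks and late over early in HER2, are not independent of each other.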

How the data were processed

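UMI counts of every barcode, unfiltered, were deposited. Per the submitters' processing notes the authors made these counts with Cell Ranger 5.0.1 on mm10, while the file headers name Cell Ranger 4. No doublet caller was run, and doublets may remain. The UMIs of all cells of a class in a library were added and expressed as CPM. Ratios are log2 of CPM + 10, genes were filtered at 50 CPM (class) or 100 CPM (library pairs), and calls need 1.5-fold (5 to 4 for both stages). Intervals of ratios are exact conditional binomial and shares are Clopper-Pearson, both at 95%. Totals were 642201, 475748, 240128 and 303543 UMIs for members, which limits low genes most in the late libraries. The 82 genes that were ranked or are rule, C1q or Cd209 genes or Retnla were checked for near-identical copies by BLAST 2.17.0 (last 300 bases, 95% over 90 bases, GENCODE M21). Other genes named were not.

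Members, the 18 gene lists and the 18 marker lists were chosen with earlier results of these data known. Named genes were the 15 highest and 10 lowest for members over others, by the smallest of the 4 ratios. They were 8 and 8 for each genotype comparison and 4 and 4 for each stage comparison, by the interval bound nearest to 0, with at most 50% of UMIs in the richest 3 cells of the higher library, and 6 and 6 for both stages. Rule genes, markers of other types, mitochondrial, ribosomal, haemoglobin, immunoglobulin, sex-linked and unnamed genes were not ranked, and up to 4 abundant members of a list may be named too. Names in the counts of listed genes go beyond this and were chosen after their values were seen. Some genes that the rule selects are not reported here. Free RNA was taken from barcodes of 10 to 100 UMIs, and thinning was to 2000 UMIs. The code was tested on simulated counts. It used Python 3.11.15, NumPy 2.4.6, SciPy 1.17.1 and pandas 2.3.3. The deposited tables of average UMIs in alveolar macrophages were not used.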

Additional observations from a re-analysis of the deposited data

Results flagged for a closer look

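Opposite directions of the HER2 over wildtype ratio within members were looked for only among named, listed and marker genes outside the rule. For 9 of these the ratio pointed up past 1.5-fold at 1 stage and down past it at the other. Their counting intervals also had to exclude no change at both stages. Other genes were not counted, so 9 is not the number over all genes tested. With 1 library per group the difference between stages was not tested. Retnla had log2 ratios of 1.19 at 16 weeks and -1.49 at 32 weeks, and Ednrb 1.09 and -0.92. Prg4, found in 4 or 5 members of a library, had 2.47 and -1.52. Gas6 had 0.61 and -0.61, and Tns1 0.76 and -0.86. The factors Klf2 and Klf4 had 0.62 and -0.81, and 0.62 and -0.81. In the opposite direction, Cd52, a small surface glycoprotein, had -0.67 and 0.59, and Tmsb10 -0.67 and 1.16. Without the cells that held T cell RNA, Cd52 had -0.18 and 0.66 and Tmsb10 0.36 and 1.27. In that setting Retnla had 1.31 and -1.67, Ednrb 1.31 and -1.01, Prg4 1.84 and -1.69, Gas6 0.90 and -0.68, Tns1 0.82 and -0.89, Klf2 0.70 and -0.93, and Klf4 1.12 and -0.99. With the Prg4 cells left out, Retnla had 1.29 and -0.83 and Ednrb 0.84 and -0.45, the last no longer past 1.5-fold.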

How the results depend on the processing

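No paired analysis was possible because each group is 1 library with no replicate number. The counts of genes called were 164 at 16 weeks, 287 at 32 weeks, 347 between stages in wildtype, 129 in HER2 and 76 at both stages. They were 2438 genes at 16 weeks, 3869 at 32 weeks, 3469 between stages in wildtype, 2843 in HER2 and 1156 at both stages with no filter on low values, and 50 genes at 16 weeks, 123 at 32 weeks, 129 between stages in wildtype, 49 in HER2 and 24 at both stages with a stricter one. The filter on cells of other types described above left 9, 14, 17 and 8 members. With it the counts were 521 genes at 16 weeks, 560 at 32 weeks, 629 between stages in wildtype, 512 in HER2 and 135 at both stages. Without members with 3 or more UMIs of the cell cycle list, which left 4, 12, 17 and 6, they were 1237 genes at 16 weeks, 743 at 32 weeks, 1223 between stages in wildtype, 861 in HER2 and 241 at both stages. That list includes widely expressed genes, and Mki67 was found in 9, 3, 3 and 2 members, so the members left out are not shown to be dividing. Genes lower in members were 61, and 104 with no filter and 98 without members above that cell cycle bound. With 20 or more rule gene UMIs, an alternative chosen after seeing the data as were those on T cell RNA and on Prg4, 491 genes were called at 32 weeks and 297 between stages in HER2. The share of members was 12.1, 10.9, 5.83 and 3.02% after thinning, and 13.4, 7.04, 5.15 and 3.11% without cells of other types. That filter counts the neutrophil list, which in members is nearly all Mmp9. The list reached 2 or more UMIs in 42.0, 42.5, 38.2 and 38.5% of members and 6.51, 4.45, 2.94 and 4.34% of the others. The filter thus takes out members and others unevenly, and members in part for a gene that they carry. With Fcna, Folr2, Lyve1 and Cd163 alone it was 15.5, 12.5 and 5.21% in the first 3 libraries, and with 6 or more rule gene UMIs it was 5.85% in wildtype late. Of 839 recomputed values of 85 named results 610 moved by less than their spread, 192 by more and 37 changed direction. The spread was the SD over the libraries for members over others, the arm of the counting interval for pairs of libraries and the calling ratio for both stages. Those without cells of other types were Acp5 0.68 for 16 weeks, Selenop 0.15 for 32 weeks, Polr1d -0.53, Alox5ap -0.35, Plin2 -0.27, Cd9 -1.87, Pnn 0.65, Arid1a 0.65 and Slc38a2 0.67 for both stages. Those without cells above the cell cycle bound were Fn1 -0.65 for members over others, Ier3 -0.63, Ednrb -4.30, Bcl11b 3.28, Ets1 1.97 and Smc4 1.97 for 16 weeks, Fth1 -0.22, S100a6 -1.75 and Selenop 0.067 for 32 weeks, Mrc1 -0.43, Satb1 1.5 and Tmsb10 2.22 for late over early in wildtype, Retnla 0.45 and Cd209d 0.64 for late over early in HER2, Polr1d -1.52, Alox5ap -1.42, Hmox1 -0.23, Plin2 -0.31, Cd9 -0.54, Lmna -1.19, Pnn 1.05 and Elf1 0.018 for both stages. Without cells with Prg4 it was Fn1 -1.02 for members over others. Without T cell RNA they were Ets1 1.47 for 16 weeks, Satb1 0.52 for late over early in wildtype, Arid1a 0.026 for both stages, and with 20 or more rule gene UMIs Cd9 -0.18 and Lmna -0.23 for both stages. These are log2 ratios, for both stages the smallest between a HER2 and a wildtype library, and fewer cells and UMIs stood behind them; no other cause was tested. The smaller UMI totals of the members limit the late libraries most.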

Other observations

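A list of 30 cell cycle genes, some of them widely expressed, reached 3 or more UMIs in 45.6, 43.1, 36.2 and 35.9% of members and 62.7, 52.1, 43.5 and 47.4% of the other C1q-positive macrophages after thinning to 2000 UMIs. Before thinning the shares were 94.2, 83.6, 69.1 and 84.6% and 90.8, 81.7, 65.6 and 85.5%. Mki67 had a UMI in 9, 3, 3 and 2 members and Top2a in 9, 5, 4 and 3, so the list does not show that the cells it marks were dividing.

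The members with Prg4 held 192, 237, 517 and 19 Retnla UMIs, found in 4, 5, 3 and 2 of the 5, 5, 4 and 4 cells, of 1447, 2456, 1389 and 622 in all members.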
